A study of Homo sapiens with 6 samples.

Results

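The genes described here belong to the SLC2A family, which encodes the facilitative sugar transporters known as GLUT proteins. They were taken by gene symbol: SLC2A1, SLC2A2, SLC2A3, SLC2A4, SLC2A6, SLC2A8, SLC2A10, SLC2A12, SLC2A13 and SLC2A14. All 10 were measured, each by 1 probe set, among 17687 genes on the array, and none was removed for a low signal. The cells were NCI-H2023, a human line established from a lung adenocarcinoma. They were reverse transfected with Lipofectamine RNAiMAX in the presence of 0.5 nM of a synthetic copy (mimic) of miR-29a-3p, 0.5 nM of a mimic of miR-223-3p, or 0.5 nM of a control, and the medium was changed 24 h after transfection. The sample titles call the control a mimic control, whereas the protocol names a negative control siRNA. Each of the 3 groups had 2 samples, A and B, and the labels give no harvest time. Nothing in the labels states that A and B were separate cultures, so every p-value reflects no more than the scatter between these arrays, and that scatter may be technical.

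GLUT proteins carry hexoses across membranes down their concentration gradient, without coupling to ATP or sodium. Members differ in substrate, affinity and place in the cell, from the widely used basal carrier SLC2A1 to the insulin-responsive SLC2A4 and several carriers that sit mainly on intracellular membranes. Many lung tumours take up glucose avidly, and SLC2A1 and SLC2A3 are the members most often described in that setting. A microRNA pairs with its targets mainly through its seed, and lowers the level or the translation of the messages it binds.

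The mature sequences of the 2 microRNAs are given with the endogenous relatives of miR-29a-3p that carry the same seed. The mimic groups differ in which of the 2 was mimicked, and the sequences of the mimics themselves were not examined. Capitals mark the seed, bases 2 to 8 from the 5′ end.
hsa-miR-29a-3p: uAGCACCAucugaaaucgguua
hsa-miR-29b-3p: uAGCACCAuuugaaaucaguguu
hsa-miR-29c-3p: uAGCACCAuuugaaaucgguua
hsa-miR-223-3p: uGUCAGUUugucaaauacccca
The sequences are those of RefSeq on GRCh38.p14, where miR-29a-3p lies on the minus strand at chr7:130876748-130876769 and miR-223-3p on the plus strand at chrX:66018937-66018958. The miR-29 seed pairs with TGGTGCT and the miR-223 seed with AACTGAC in a message. Transcript sequences were not used here, so the members were not searched for either site.

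Values are log2 signals after robust multi-array averaging (RMA), and a difference of 1 is a doubling of signal. A signal is comparable between samples for 1 gene but not between genes. Groups were compared with limma over all 17687 genes, with a Benjamini-Hochberg adjusted p under 0.05 as the threshold. The main comparison used a constant prior variance, and a prior that follows signal intensity was an alternative, given beside it where the calls differ. Medians of the arrays lay between 6.21 and 6.23. Correlations between arrays were 0.994 to 0.995 within groups and 0.992 to 0.994 between groups. Of the 9 lung epithelial and adenocarcinoma markers, 6 lay above the median gene. The keratins KRT7, KRT8 and KRT18 were among the brightest genes, whereas the lung lineage markers NKX2-1, NAPSA and SFTPB had control means of only 4.975, 3.785 and 4.655. As the RNA came from a bulk culture, fewer cells of a kind and less RNA per cell cannot be told apart.

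SLC2A3 and SLC2A14 gave the large differences among the 10 genes. With the miR-29a-3p mimic both were more than 3-fold below the control signal, and with the miR-223-3p mimic SLC2A14 was close to control while SLC2A3 lay above it. SLC2A3 encodes GLUT3, a high-affinity glucose carrier best known from neurons. SLC2A14 encodes GLUT14, a close duplicate of GLUT3 described mainly in testis. The genes lie side by side on chromosome 12, SLC2A14 from 7812514 to 7891196 and SLC2A3 from 7919230 to 7936187, with 28033 bases between them. They are near-identical copies, so a probe set may read both transcripts. Probe sequences were not used here, and how much of each signal came from the other gene was not tested.

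The SLC2A3 signals were 7.5 and 7.52 in the control samples, 5.57 and 6.14 with miR-29a-3p, and 8.56 and 7.99 with miR-223-3p. No sample of 1 group reached the range of another, and the order was miR-29a-3p, control, miR-223-3p. The group means were 7.51 ± 0.014 (SD, n = 2), 5.855 ± 0.403 (SD, n = 2) and 8.275 ± 0.403 (SD, n = 2). Between the mimics SLC2A3 fell by 2.42 on the log2 scale with miR-29a-3p relative to miR-223-3p (SE 0.258, limma adjusted p = 0.0303), a 5.35-fold difference. This placed the gene at rank 5 by p-value among all genes. Against control, the miR-29a-3p difference was -1.655 (95% interval -2.24 to -1.07), or 3.15-fold. It missed the threshold with the constant prior (adjusted p = 0.117) and passed it with the intensity trend (adjusted p = 0.00352). The miR-223-3p difference from control was 0.765 (95% interval 0.18 to 1.35), or 1.699-fold, and passed neither test (adjusted p = 0.554, and 0.338 with the intensity trend).

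The SLC2A14 signals were 8.42 and 8.6 in the control samples, 6.7 and 6.97 with miR-29a-3p, and 8.35 and 8.48 with miR-223-3p. Both miR-29a-3p samples lay below the other 4 samples, and the control and miR-223-3p ranges overlapped. The group means were 8.51 ± 0.127 (SD, n = 2), 6.835 ± 0.191 (SD, n = 2) and 8.415 ± 0.092 (SD, n = 2). Between the mimics SLC2A14 fell by 1.58 with miR-29a-3p relative to miR-223-3p (SE 0.188, limma adjusted p = 0.0321), a 2.99-fold difference. Against control, the miR-29a-3p difference was -1.675 (95% interval -2.10 to -1.25), or 3.19-fold, and stood at rank 3 by p-value. It was just above the threshold with the constant prior (adjusted p = 0.0625) and passed it with the intensity trend (adjusted p = 0.000576). The miR-223-3p difference from control was -0.095 (95% interval -0.53 to 0.34), which does not exclude a shift of either sign of up to about that size.

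Both calls between the mimics were lost when only those groups entered the model (adjusted p = 0.0735 for each gene) and whenever any 1 of the 6 samples was left out (adjusted p = 0.0735 to 0.209 for SLC2A3 and 0.0735 to 0.221 for SLC2A14), while the differences stayed between -2.705 and -2.135 for SLC2A3 and between -1.715 and -1.445 for SLC2A14. With the intensity trend, the SLC2A3 call against control was lost without miR-29a-3p sample A (adjusted p = 0.0822), and the SLC2A14 call was kept without any 1 sample (adjusted p = 0.000482 to 0.0222).

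**Figure D1:**
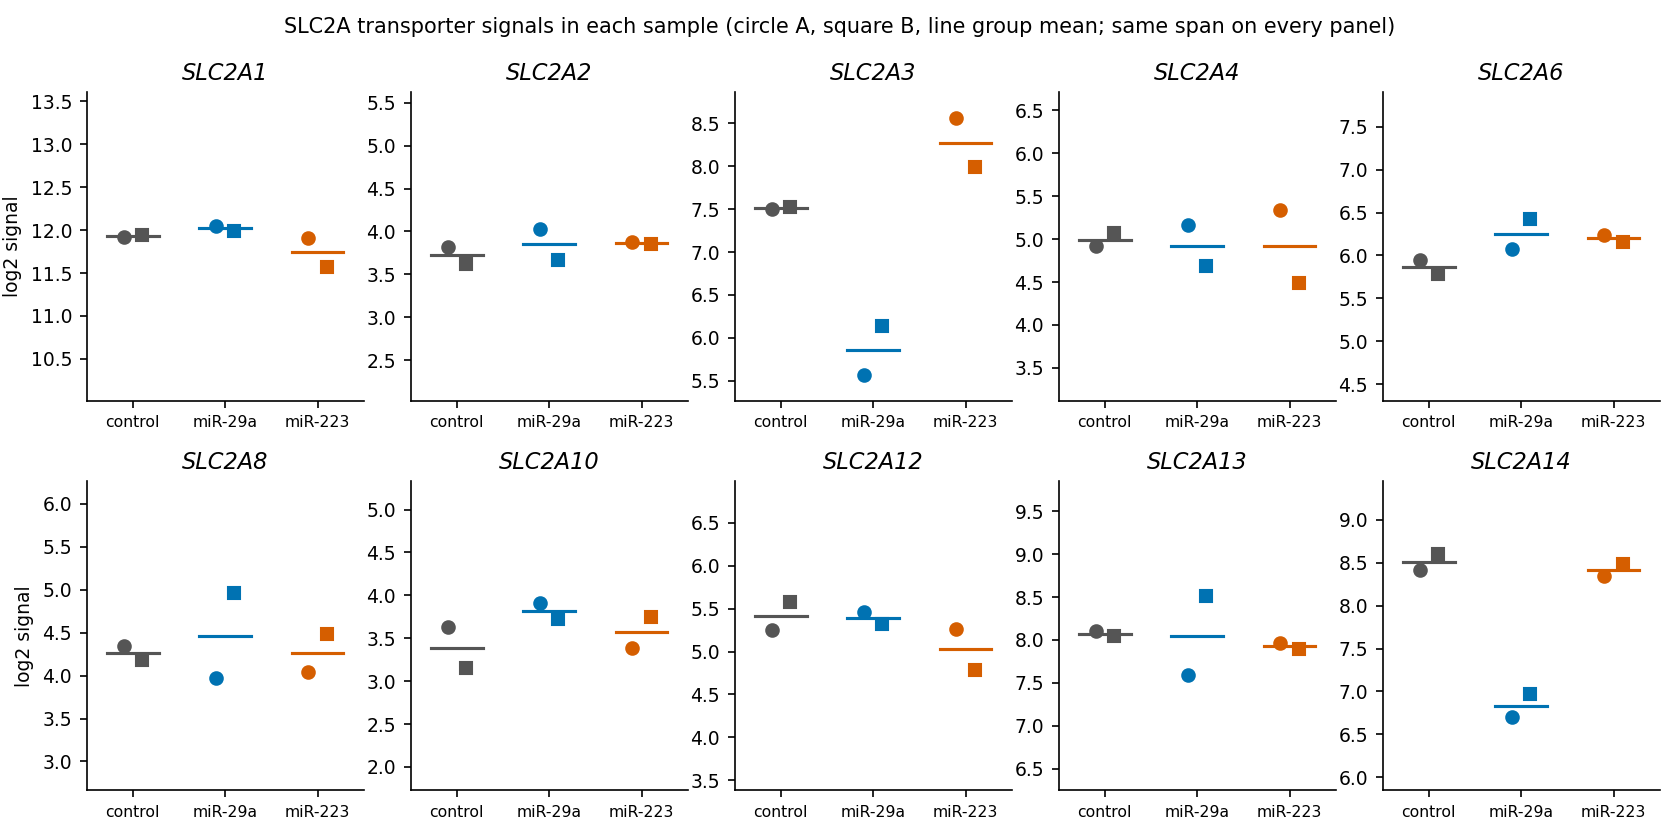
Log2 signal (y axis) of each of the 10 SLC2A genes in the control, miR-29a-3p and miR-223-3p groups; circles are sample A, squares sample B and lines the group means, and every panel spans the same number of log2 units. SLC2A3 separates all 3 groups, with means of 7.51, 5.855 and 8.275, and SLC2A14 separates miR-29a-3p from the rest. The rise of SLC2A3 with miR-223-3p over control was not called. No other panel holds a called difference. In SLC2A1 the 3 groups also do not overlap, in the reverse order, and in SLC2A6 all 4 mimic samples lie above both controls.

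The summed level of the epithelial markers had the same order of groups as SLC2A3. Over the 9 genes it was, in log2 units, 96.75 to 96.88 in control samples, 96.02 to 96.41 with miR-29a-3p and 97.87 to 99.67 with miR-223-3p. With the intensity trend, the adhesion molecule EPCAM rose with miR-223-3p over control (means 11.465 and 10.325, limma adjusted p = 0.00201), as did the keratin KRT19 (means 12.875 and 12.055, adjusted p = 0.00586). These were 2 of the 9 markers, where the intensity trend called 0.684% of all genes and the constant prior called no gene. The junction cadherin CDH1 was lower in the miR-29a-3p than in the miR-223-3p samples (means 9.965 and 10.835, adjusted p = 0.0360). With EPCAM it made 2 of the 9 markers that the intensity trend called between the mimics, against 1.94% of all genes. Single markers did not all follow the order of the sum. With miR-29a-3p the means of EPCAM, KRT19, KRT7, KRT8 and NKX2-1 were above control, and those of CDH1, KRT18, NAPSA and SFTPB below it, with CDH1 the furthest (9.965 against 10.805). The part of these markers in the SLC2A3 differences was not tested. Summed levels of the 5 leukocyte markers measured were 27.57 to 29.45 in control samples, 27.86 to 27.95 with miR-29a-3p and 27.26 to 27.50 with miR-223-3p. Among them only CD68, a lysosomal protein, was called with the intensity trend. It was higher with miR-29a-3p by 0.665 than in control samples (adjusted p = 0.0489), and by 0.745 against the miR-223-3p samples (adjusted p = 0.0140). Over all genes the intensity trend called 1.03% and 1.94% in these comparisons. For EPCAM, KRT19, CDH1 and CD68 only the adjusted p of the intensity trend is given. PTPRC, CD3E, LYZ and ITGAM had group means of at most 5.055. Of 7 fibroblast and endothelial and 5 muscle and adipocyte markers, limma with the intensity trend called none in any comparison.

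The difference between the SLC2A3 and SLC2A14 signals within each array shows whether the 2 probe sets moved by the same amount. As each may read both transcripts, the change of either copy cannot be told from it. For brevity it is called the difference below. The difference was -0.92 and -1.08 in the control samples, -1.13 and -0.83 with miR-29a-3p, and 0.21 and -0.49 with miR-223-3p. Control and miR-29a-3p overlapped, and both miR-223-3p samples lay above the other 4. The mean shifted by 0.02 between miR-29a-3p and control and by 0.86 between miR-223-3p and control. A two-sided exact permutation test gave p = 1.0 for the first and 0.333 for the second, and 0.333 is the smallest value that 2 samples against 2 allow. Without any 1 sample the shift with miR-223-3p lay between 0.51 and 1.21, and that with miR-29a-3p between -0.13 and 0.17. In both miR-223-3p samples the SLC2A3 signal stood higher relative to the SLC2A14 signal than in any other sample.

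Genes around the pair showed no called difference. Outside the pair, 12 measured genes had midpoints within 500 kb of that of SLC2A3, including the pluripotency factor NANOG and macrophage receptor CD163. Most of the 12, NANOG among them, had a mean under 4.06, the 25th percentile of all genes. There a signal may be mostly background, so a fall could hardly have been seen. The brightest were FOXJ2, at 8.52 to 9.73 over the samples, and NECAP1, at 9.88 to 10.44. Their miR-29a-3p differences from control ran from -0.365 for FOXJ2 to 0.37 for DPPA3, and the smallest adjusted p was 0.711 (0.668 with the intensity trend). Their miR-223-3p differences ran from -0.3 to 0.415, with a smallest adjusted p of 0.765 (0.726 with the intensity trend). Between the mimics they ran from -0.695 to 0.395, with a smallest adjusted p of 0.401 (0.165 with the intensity trend).

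**Figure D2:**
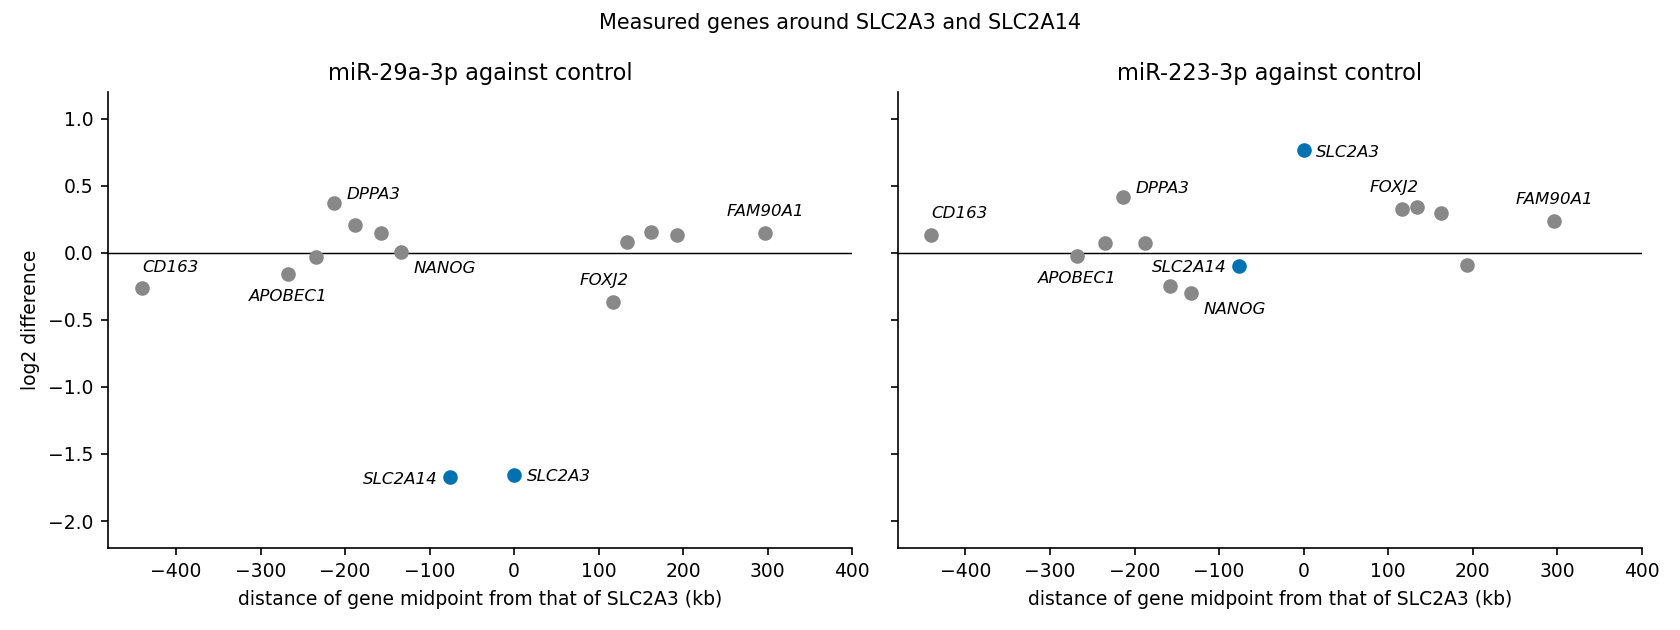
Log2 difference from control (y axis) of each measured gene around SLC2A3 and SLC2A14 against the distance of its midpoint from that of SLC2A3 in kb (x axis), for miR-29a-3p and miR-223-3p; blue points are the SLC2A copies and grey points the 12 neighbours, some of them named. With miR-29a-3p the copies lie at -1.655 and -1.675 and the neighbours between -0.365 and 0.37. Most of the neighbours had dim signals that may be mostly background.

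Genes across the array were ranked by how closely their profiles followed those of the copies. Likeness was measured as the root mean square distance between profiles over the 6 samples, each centred on its own mean, and is a description only. The nearest profile to SLC2A3 was that of C1QTNF6, a secreted C1q/TNF-related protein, at 0.284, with group means of 10.24 in control samples, 8.24 in the miR-29a-3p and 10.55 in the miR-223-3p samples. ADH6, an alcohol dehydrogenase, followed at 0.352, then RCC2, a chromatin-associated protein, at 0.429, TDG, a DNA glycosylase that repairs mismatched thymine, at 0.441, and PPIC, a cyclophilin, at 0.446. SLC2A14 stood at rank 8 of 17686 genes, at 0.459. Seen from SLC2A14, the nearest profiles were those of TDG at 0.183, RCC2 at 0.210, CARD10 at 0.214, SGK1 at 0.223 and CXCL16 at 0.231, and SLC2A3 stood at rank 119. TDG and RCC2 were in both lists of 5.

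SLC2A1 encodes GLUT1, the basal glucose carrier of most dividing cells, and lies on chromosome 1 from 42925353 to 42958868. Its signals were 11.92 and 11.94 in the control samples, 12.05 and 11.99 with miR-29a-3p, and 11.91 and 11.57 with miR-223-3p. Both miR-29a-3p samples were above both controls and both miR-223-3p samples below them, in sample A by 0.01 only. The differences were 0.09 for miR-29a-3p (95% interval -0.34 to 0.52), -0.19 for miR-223-3p (95% interval -0.62 to 0.24) and 0.28 between the mimics (95% interval -0.15 to 0.71, limma adjusted p = 0.684). None passed a test, and the intervals leave room for changes of up to about those bounds. Of all genes, 366 (2.07%) had this arrangement of samples, and 354 (2.001%), SLC2A3 among them, had the reverse.

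SLC2A4 and SLC2A12 encode GLUT4, which insulin brings to the surface of muscle and fat cells, and GLUT12, a carrier also described as insulin-sensitive. SLC2A4 (chromosome 17, 7281718 to 7288257) had signals of 4.92 and 5.07 in control samples, 5.16 and 4.69 with miR-29a-3p, and 5.34 and 4.49 with miR-223-3p. All 3 ranges overlapped, and the differences were between -0.08 and 0.01 (SE 0.291). SLC2A12 (chromosome 6, 133987581 to 134052624) had signals of 5.25 and 5.58 in control samples, 5.46 and 5.32 with miR-29a-3p, and 5.26 and 4.79 with miR-223-3p. Its largest difference was -0.39 for miR-223-3p against control (95% interval -0.89 to 0.11, limma adjusted p = 0.743). Its control and miR-223-3p ranges overlapped only by 0.01, the gap between 5.25 and 5.26.

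SLC2A2 encodes GLUT2, the low-affinity carrier of liver and pancreatic beta cells. SLC2A2 (chromosome 3, 170996347 to 171026720) had signals of 3.82 and 3.62 in control samples, 4.03 and 3.67 with miR-29a-3p, and 3.88 and 3.85 with miR-223-3p. With SLC2A10 it was 1 of 2 members whose mean was under 4.06, the 25th percentile of all genes, where a signal may be mostly background. Its differences were 0.13 and 0.145 from control and -0.015 between the mimics (SE 0.196).

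SLC2A6, SLC2A8 and SLC2A10 encode GLUT6, GLUT8 and GLUT10, carriers found largely on intracellular membranes. SLC2A6 (chromosome 9, 133471094 to 133479099) had signals of 5.95 and 5.78 in control samples, 6.08 and 6.43 with miR-29a-3p, and 6.24 and 6.16 with miR-223-3p. All 4 mimic samples lay above both controls, by 0.39 for miR-29a-3p (95% interval -0.05 to 0.83, limma adjusted p = 0.616) and 0.335 for miR-223-3p (adjusted p = 0.752). SLC2A10 (chromosome 20, 46708320 to 46736347), which is mutated in arterial tortuosity syndrome, had signals of 3.63 and 3.15 in control samples, 3.91 and 3.73 with miR-29a-3p, and 3.39 and 3.75 with miR-223-3p. Its miR-29a-3p samples were above both controls, by 0.43 (95% interval -0.09 to 0.95, adjusted p = 0.626), and its mean was the other one under the 25th percentile. SLC2A8 (chromosome 9, 127397169 to 127407898) had signals of 4.35 and 4.18 in control samples, 3.97 and 4.96 with miR-29a-3p, and 4.04 and 4.48 with miR-223-3p. The miR-29a-3p samples of SLC2A8 lay on both sides of all the others, and the SE of its differences, 0.314, was the largest among the members.

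SLC2A13 is an outlier of the family by function, since it encodes a proton-coupled myo-inositol transporter rather than a facilitative sugar carrier. SLC2A13 (chromosome 12, 39755025 to 40106081) had signals of 8.1 and 8.05 in control samples, 7.59 and 8.51 with miR-29a-3p, and 7.96 and 7.9 with miR-223-3p. The miR-223-3p samples were both below the controls, by 0.145 on average, and the miR-29a-3p samples lay on either side. No difference of SLC2A13 exceeded its SE of 0.280.

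**Figure D3:**
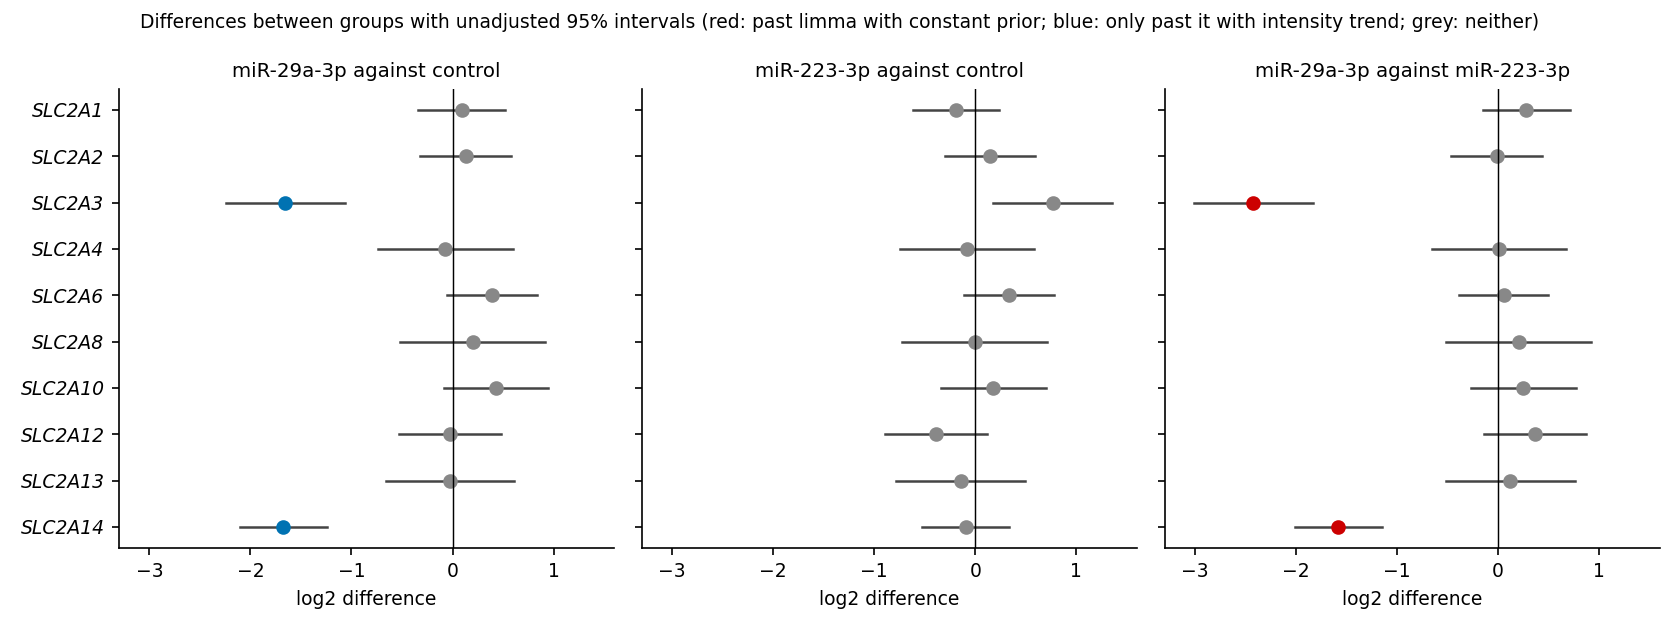
Log2 differences (x axis) of the 10 SLC2A genes for the 3 comparisons, with unadjusted 95% intervals from limma; red points passed the adjusted threshold with the constant prior, blue points passed it with the intensity trend only, and grey points passed neither. SLC2A3 and SLC2A14 are red between the mimics, at -2.42 and -1.58, and blue for miR-29a-3p against control; every other point is grey.

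Counted over the 10 members, 5 lay above and 5 below control with miR-29a-3p, with a median difference of 0.0325 against 0.0 over all genes. None was called by limma with the constant prior, which called 0.0113% of all genes (2 genes, and 1567 at an unadjusted p under 0.05, SLC2A3 and SLC2A14 included). With the intensity trend 2 members were called, against 1.03% of all genes (182 genes). In 5 members the miR-29a-3p and control samples did not overlap, against 37.8% of all genes.

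With miR-223-3p, 4 members lay above and 6 below control, with a median of -0.0425 against 0.0 over all genes. No member was called by limma with the constant prior, and the share over all genes was 0% (0 genes, and 1343 at an unadjusted p under 0.05, with SLC2A3 the 1 member among them). The intensity trend called none of the members and 0.684% of all genes (121 genes). The samples of 5 members did not overlap, against 36.9% of all genes.

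Between the mimics, 7 members lay higher with miR-29a-3p and 3 lower, with a median of 0.0875 against -0.005 over all genes. The 2 calls, SLC2A3 and SLC2A14, compare with 0.221% of all genes (39 genes) with the constant prior and 1.94% (344 genes) with the intensity trend. The samples of 4 members did not overlap, against 38.7% of all genes. The 2 comparisons with control share the control samples, and because the copies may share signal they are not 2 independent observations. Of the 8 members without SLC2A3 and SLC2A14, none was called in any comparison under any setting tried, and none had an unadjusted p under 0.05 with the constant prior.

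The 4 other SLC2A genes on the array were not called either. SLC2A5 encodes the fructose carrier GLUT5, and its differences from control were -0.03 and -0.06 for miR-29a-3p and miR-223-3p. SLC2A9, a urate carrier, had signals of 4.79 and 5.46 in control samples, 5.82 and 5.07 with miR-29a-3p, and 5.38 and 6.13 with miR-223-3p, with all ranges overlapping. SLC2A11 had signals of 8.35 and 8.28 in control samples, 8.29 and 8.54 with miR-29a-3p, and 8.65 and 8.79 with miR-223-3p. The miR-223-3p samples of SLC2A11 were above the other 4, by 0.405 over control on average. SLC2A7 differed by 0.105 and -0.03 from control.

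Glucose carriers are themselves controlled by sorting and by transcription factors, and 17 of 18 listed genes with such roles were measured. With the intensity trend 1 of the 17 fell with miR-29a-3p against control, and 1 was higher in the miR-29a-3p samples when the mimics were compared. Over all genes the intensity trend called 1.03% in the first comparison and 1.94% in the second. The first was ARRDC4, an arrestin-domain protein that, like its relative TXNIP, restrains glucose uptake. The ARRDC4 signals were 6.0 and 6.26 in control samples, 4.7 and 4.99 with miR-29a-3p, and 5.55 and 6.03 with miR-223-3p. Both miR-29a-3p samples lay below the other 4, and the difference from control was -1.285 (SE 0.225), or 2.44-fold (limma adjusted p = 0.136, and 0.0348 with the intensity trend). TXNIP, named after its values were seen, had 7.02 and 6.99 in control samples, 7.15 and 7.38 with miR-29a-3p, and 6.8 and 7.51 with miR-223-3p, and was not called. The other was MYC, a transcription factor that drives many genes of glucose use, with signals of 11.36 and 11.31 in control samples, 11.46 and 11.55 with miR-29a-3p, and 10.99 and 10.72 with miR-223-3p. Between the mimics MYC differed by 0.65 (adjusted p = 0.256, and 0.0255 with the intensity trend).

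Inside the cell, glucose is committed by the glycolytic enzymes, of which 19 of 21 listed were measured. With miR-29a-3p, 11 were above and 8 below control (median 0.01) and none was called by either prior, nor reached an unadjusted p under 0.05 with the constant prior. With miR-223-3p, 2 were above and 17 below control (median -0.075), and 1, LDHA, was called lower with the intensity trend. Over all genes 50.15% lay above and 49.47% below control, and the intensity trend called 0.684%. LDHA, which converts pyruvate to lactate, had signals of 16.4 and 16.41 in control samples, 16.42 and 16.37 with miR-29a-3p, and 16.09 and 15.91 with miR-223-3p. Its miR-223-3p samples lay below the other 4, by 0.405 against control (limma adjusted p = 0.648, and 0.0465 with the intensity trend). Between the mimics 16 of the 19 were higher with miR-29a-3p and 3 lower (median 0.135), against 49.6% and 50.17% of all genes. LDHA was the only call, by the intensity trend, which called 1.94% of all genes (difference 0.395, adjusted p = 0.0255, against 0.492 with the constant prior).

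Of 6 listed genes of lactate and pyruvate transport, SLC16A7, BSG, MPC1 and MPC2 were measured, and SLC16A1 and SLC16A3 were not. All 4 measured genes were below control with miR-29a-3p, with a median of -0.3725 and no overlap of samples in any. Over all genes 49.6% lay below control in that comparison, and 37.8% had groups that did not overlap. With miR-223-3p all 4 were below control as well, with a median of -0.1625 and no overlap of samples in 2. Over all genes 49.47% lay below control there, and 36.9% had groups that did not overlap. The same control samples entered both comparisons. None of the 4 passed a test. The largest difference was that of MPC2, a subunit of the mitochondrial pyruvate carrier, with signals of 12.3 and 12.24 in control samples, 11.81 and 11.79 with miR-29a-3p, and 12.11 and 12.07 with miR-223-3p. Its difference of -0.47 with miR-29a-3p against control had an adjusted p of 0.482 in limma, and 0.112 with the intensity trend.

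Of 5 listed fructose and polyol enzymes only KHK and GFPT1 were measured, and KHK was not called in any comparison. GFPT1 was called between the mimics with the constant prior, which called 0.221% of all genes there. It is the first enzyme of the hexosamine pathway, which diverts fructose 6-phosphate from glycolysis to amino sugars. Its signals were 13.39 and 13.28 in control samples, 13.88 and 13.78 with miR-29a-3p, and 12.21 and 12.36 with miR-223-3p. The groups did not overlap, in the order miR-223-3p, control, miR-29a-3p, which is the reverse of SLC2A3. Between the mimics GFPT1 was higher by 1.545 in the miR-29a-3p samples (SE 0.176, limma adjusted p = 0.0321), or 2.92-fold. Against control it differed by -1.05 with miR-223-3p (adjusted p = 0.199, and 0.00023 with the intensity trend) and by 0.495 with miR-29a-3p (adjusted p = 0.481, and 0.0563 with the intensity trend). Over all genes the intensity trend called 0.684% for miR-223-3p against control. The call between the mimics was lost with only those groups in the model (adjusted p = 0.0735) and without any 1 sample (adjusted p = 0.0735 to 0.221), the difference staying between 1.47 and 1.62.

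**Figure D4:**
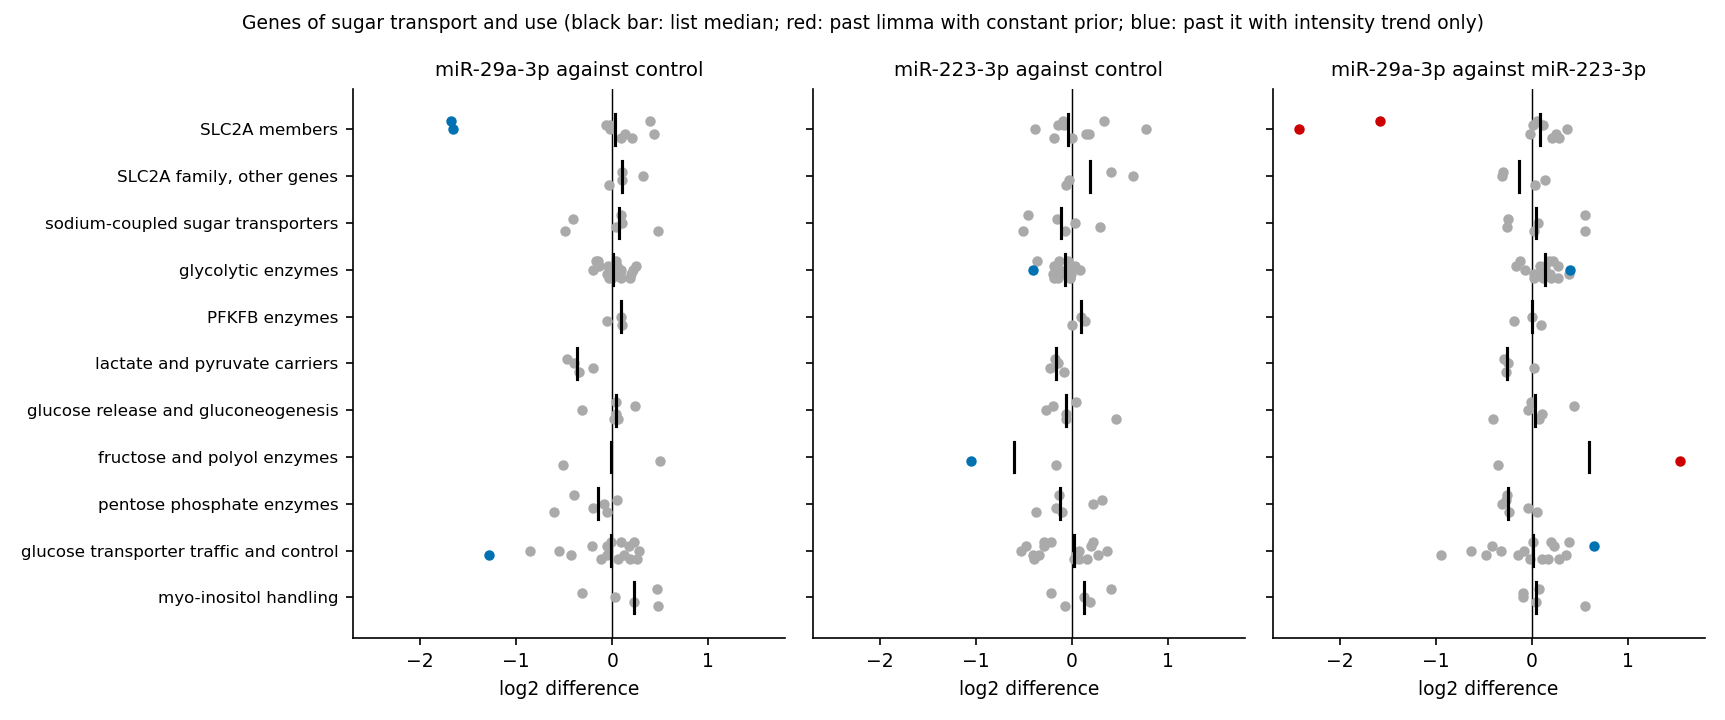
Log2 differences (x axis) of every measured gene in the SLC2A members and 10 lists of genes of sugar transport and use (y axis) for the 3 comparisons; black bars are list medians, red points passed limma with the constant prior, blue points only with the intensity trend, and grey points neither. The red points between the mimics are SLC2A3 at -2.42, SLC2A14 at -1.58 and GFPT1 at 1.545.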

How the data were processed

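Total RNA from 6 samples was hybridised to 1-colour arrays. The authors deposited log2 signals made with RMA on hg38 per the submitters' processing notes, with no version named. They hold 21448 probe sets with values of 1.99 to 18.49. Of these, 17709 had 1 gene symbol in the platform annotation, none had several and 3739 had none; where a gene had more than 1 probe set the brightest on average was kept, leaving 17687 genes. RMA removes differences in overall level between arrays and keeps no scanner background, so detection was not judged, and 2 arrays a group limit precision.

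R 4.3.3 and limma 3.58.1 fitted all 3 groups (3 residual degrees of freedom), with eBayes and Benjamini-Hochberg adjustment over 17687 genes. The fit was also run on simulated data without an intensity trend, which cannot tell which prior suits these arrays. The within-array difference of SLC2A3 and SLC2A14 had an exact permutation test. Coordinates are those of RefSeq on GRCh38.p14. Members and lists were chosen with earlier results of these data known. Genes of a list were named if called by either prior, and otherwise those with the smallest unadjusted p, 2 for miR-29a-3p against control and 2 between the mimics. Alternatives were the intensity trend, other normalization, filters, weights, samples entering the model, a replicate block and leaving out each sample.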

Additional observations from a re-analysis of the deposited data

Results flagged for a closer look

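SLC2A3 differed between the mimics by -2.42 on the log2 scale by a test of the difference itself (limma adjusted p = 0.0303), and its samples also lay on opposite sides of the controls, both below them with miR-29a-3p and both above them with miR-223-3p. SLC2A14 differed by -1.58 by the same test (adjusted p = 0.0321). SLC2A1 had the opposite arrangement of samples, above both controls with miR-29a-3p and below them with miR-223-3p. Its difference between the mimics was 0.28; the arrangement itself was not tested, and limma did not call the difference (adjusted p = 0.684). Over all genes, 354 (2.001%) had the arrangement of SLC2A3 and 366 (2.07%) that of SLC2A1.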

How the results depend on the processing

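The number of genes called over the whole array depended on the prior, and more on the threshold. For miR-29a-3p against control, the 2 genes called became 182 with the intensity trend, 0 with the replicate block, 826 at an unadjusted p under 0.05 and a 1.5-fold change, and 0 to 2 leaving out each sample. For miR-223-3p against control, the count of 0 became 121 with the intensity trend and 684 with the unadjusted threshold. For miR-29a-3p against miR-223-3p, the 39 genes became 344 with the intensity trend, 1 with only those groups, 0 with the replicate block, 1022 with the unadjusted threshold, and 0 to 1 leaving out each sample. With the intensity trend and each sample left out, the counts were 45 to 189, 42 to 99 and 141 to 336. The cause of these shifts was not tested.

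Samples A and B share letters across groups, but deviations correlated by 0.0682, 0.00393 and 0.134, so they were not treated as pairs; with the replicate block the calls were lost for SLC2A3, miR-29a-3p against miR-223-3p, and likewise for SLC2A14 and GFPT1 (adjusted p = 0.0659 each). Those of SLC2A3 and SLC2A14 were kept under the filter on dim genes, quantile normalization, median centring, a robust prior, array weights and all probe sets. The limma adjusted p under these settings was 0.0241 to 0.0424. With the intensity trend both were kept without any 1 sample. SLC2A3 with miR-223-3p against control lay between 0.48 and 1.05.

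Small differences turned sign. Median centring moved SLC2A8 with miR-223-3p from -0.005 to 0.01. Leaving out each sample gave, with miR-29a-3p against control, -0.05 to 0.31 for SLC2A2, -0.305 to 0.165 for SLC2A4, -0.295 to 0.695 for SLC2A8, -0.19 to 0.14 for SLC2A12, -0.485 to 0.435 for SLC2A13, -0.055 to 0.695 for SLC2A9, -0.025 to 0.225 for SLC2A11, -0.185 to 0.385 for PFKFB1, -0.275 to 0.465 for PFKFB3 and -1.27 to 0.05 for PGLS. With miR-223-3p it gave -0.505 to 0.345 for SLC2A4, -0.225 to 0.215 for SLC2A8 and -0.06 to 0.42 for SLC2A10. Between the mimics it gave -0.195 to 0.165 for SLC2A2, -0.415 to 0.435 for SLC2A4, -0.12 to 0.23 for SLC2A6, -0.29 to 0.7 for SLC2A8, -0.34 to 0.58 for SLC2A13, -0.685 to 0.065 for SLC2A9, -0.185 to 0.385 for PFKFB1 and -0.42 to 0.05 for PFKFB2. In all, 13 of the 24 comparisons of members other than SLC2A3 and SLC2A14 turned sign in some setting, and 0 were called in any.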

Other observations

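Other routes of sugar transport and use gave small differences, and the genes named here are those with the smallest unadjusted p of each list with miR-29a-3p against control or between the mimics. Of the 6 sodium-coupled transporters measured, none was called. The intestinal glucose carrier SLC5A1 differed by -0.49 and the myo-inositol carrier SLC5A11 by 0.48 with miR-29a-3p against control. With miR-223-3p against control SLC5A1 differed by -0.515 and SLC5A11 by -0.07. Between the mimics SLC5A10 and SLC5A11 differed by 0.55 each. Of 5 myo-inositol genes, the group nearest to SLC2A13 by substrate, none was called. MIOX, the oxygenase that degrades myo-inositol, differed from control by 0.47 in the miR-29a-3p and 0.4 in the miR-223-3p samples, and the phosphatase IMPA2 differed by -0.095 between the mimics.

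Of 6 pentose phosphate enzymes none was called. The transketolase TKT differed by -0.395 with miR-29a-3p against control (limma adjusted p = 0.0776 with the intensity trend) and the lactonase PGLS by -0.61, against -0.135 and -0.375 with miR-223-3p, and the epimerase RPE differed by -0.27 between the mimics. Of 6 genes of glucose release and gluconeogenesis none was called. SLC37A4, which carries glucose 6-phosphate into the endoplasmic reticulum, differed by -0.315 with miR-29a-3p against control, and PCK1 by 0.24. Between the mimics PCK1 differed by 0.44 and FBP1 by -0.405. FBP1 differed by 0.46 with miR-223-3p against control. Of 3 PFKFB enzymes, which set the level of the glycolytic activator fructose 2,6-bisphosphate, none was called; with miR-29a-3p against control PFKFB1 differed by 0.1 and PFKFB3 by 0.095, and PFKFB2 differed by -0.185 between the mimics. Among the carriers of pyruvate and lactate, MPC1 differed by -0.395 with miR-29a-3p against control and SLC16A7 by -0.27 between the mimics.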
